A study of Ptychodera flava with 31 samples.

Results

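A set of 80 maternal transcripts of the acorn worm Ptychodera flava stood far lower in the early blastula than in the unfertilized egg. The members were chosen from the mean TPM of each stage (the share of a transcript in its library after correction for length). A transcript belonged to the set when it had at least 10 TPM in the egg and at most 10% of that level at each of the 8 stages from the early blastula to the Heider larva. The rule was met by 80 of 35854 transcript models, which is 1.19% of the 6729 models that reached 10 TPM in the egg. A cap of 200 members was not reached. The limit is relative to the egg, and 26 members still had 10 TPM or more in the early blastula and 11 in the adult. RNA from whole, wild-type animals was sequenced in 31 libraries at 16 stages. These were the unfertilized egg (1 library), 16-32 cell embryos (2), early and late blastulae (2 each), early gastrulae (3), mid gastrulae before (mid1, 3) and after (mid2, 2) mesoderm migration, late gastrulae (2), the tornaria larva at 72 hours post fertilization (2), the larval stages Heider, Meschnikoff, Krohn, Spengel and Agassiz (2 each), transforming larvae (1) and an adult (1). No agent or mutation separated the groups.

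An egg is stocked with messenger RNA made by the mother, and the first cleavages run on that stock before the embryo's own genome is transcribed at a high level. During the maternal-to-zygotic transition part of the stock is destroyed. In Drosophila and zebrafish, both maternally supplied factors, such as the RNA-binding protein Smaug, and factors made by the embryo, such as the microRNA miR-430, recruit deadenylases to the maternal transcripts, which lose their poly(A) tails and are degraded. The hemichordates, to which acorn worms belong, are the sister group of the echinoderms. The identifiers in the files could not be paired with gene names, since 0 of them occurred in the RefSeq gene table of 38920 entries. The members are therefore described by their levels and lengths, and lists of pathway genes or cell type markers could not be formed.

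Libraries held between 11539946 and 17288661 estimated counts. Counts differed beyond sampling noise in all 17 pairs of libraries from the same stage (chi-square of 4.31 to 80.5 for each degree of freedom), and each library was counted as a sample. The labels call the libraries biological replicates but name no parents or cultures, so that a p-value reflects the spread among these libraries, which may be technical. The 3 stages with 1 library (egg, transforming larva, adult) were assumed by the test to vary like the replicated stages. The tornaria replicate 1 at 72 hours stood apart in the level of maternal transcripts, as described further on. All 80 members met the rule without it. That was settled beforehand, since no member exceeded 10% of the egg level in either 72-hour library. Leaving it out could only have added transcripts to the set.

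The values that chose the members are given as a description. In the egg the members had 11.0 to 6049 TPM, with a median of 109 TPM, and 10 of them exceeded 1000 TPM. The estimated counts behind these levels were 105 to 164607 per member, with a median of 2323. TCONS_00021746 was the highest, at 6049 TPM in the egg, 1963 and 2055 TPM in the 16-32 cell libraries, and 280 and 245 TPM in the early blastula. TCONS_00019140 followed with 4797 TPM in the egg, 1158 and 1129 TPM in 16-32 cell embryos, and 68.7 and 46.4 TPM in early blastulae. Both were lower at each of these stages than at the one before, and the libraries of a stage lay close together compared with the distance between stages. The median member had 4.71% of its egg level left in early blastulae, 1.70% in late blastulae, 1.24% in mid gastrulae before mesoderm migration and 0.858% in late gastrulae. Nearest inside the limit were TCONS_00029298 and TCONS_00051955, which reached 9.98% and 9.88% of the egg level in the early blastula. Nearest outside were TCONS_00053008, at 10.1% in the 72-hour tornaria, and TCONS_00038014, at 10.2% in the early blastula. The lowest egg levels in the set were those of TCONS_00048523 (11.2 TPM) and TCONS_00053674 (11.0 TPM). In the early blastula alone, 221 egg transcripts were at or below 10%. Of these, 141 stood above 10% at some later stage up to Heider and were therefore not members.

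**Figure D1:**
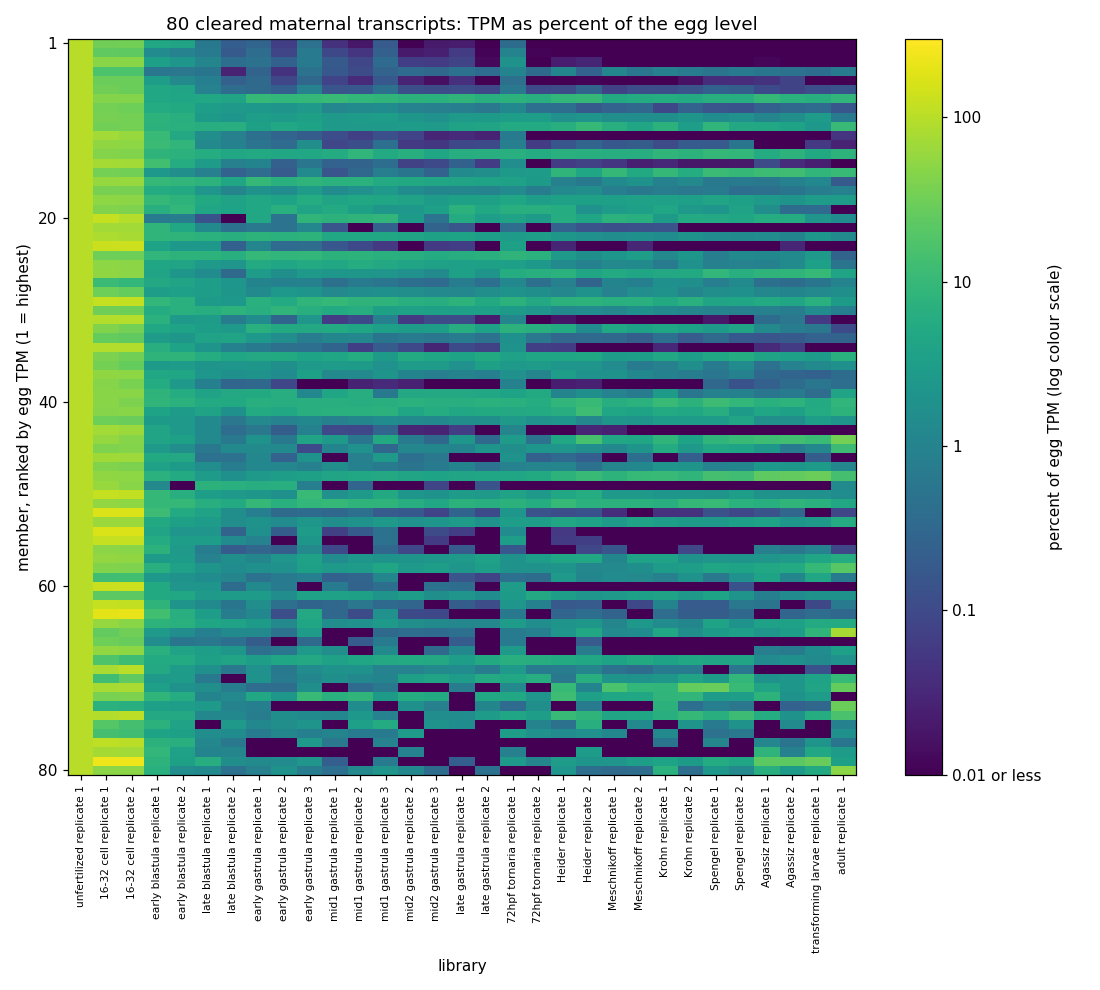
TPM of each of the 80 members in each of the 31 libraries, as a percent of the level in the egg library (colour, log scale), with members ranked by egg TPM from top to bottom and libraries in order of development from left to right. The 2 libraries of 16-32 cell embryos still hold a median of 49.6% and 48.3% of the egg level, and from the early blastula on nearly all cells are at 10% or less, which the rule required of stage means up to Heider and not of single libraries or later stages.

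Together the members made up a visible part of the egg's messenger RNA. They held 3.45% of TPM in the egg library, 1.44% and 1.40% in the 16-32 cell libraries, and 0.167% and 0.131% in the early blastula libraries. By estimated counts, which do not correct for length, the shares were 7.54% in the egg (Wilson 95% interval 7.53 to 7.56%), 2.54% and 2.58% in 16-32 cell embryos and 0.379% and 0.308% in the early blastula. Such intervals cover counting error only. The 3 most abundant members accounted for 39.8% of the summed egg TPM of the set and the 10 most abundant for 67.0%. At the 16-32 cell stage these same 3 and 10 members held 32.0% and 52.6% of the sum. From the late blastula on the share stayed between 0.0374% and 0.0732% of TPM in every library, up to the transforming larva (0.0437%) and the adult (0.0574%).

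**Figure D2:**
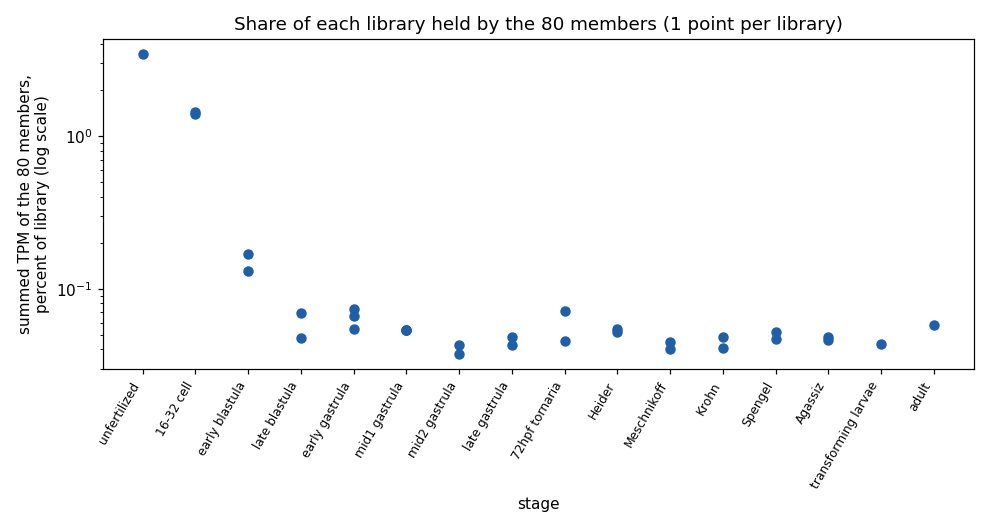
Summed TPM of the 80 members as a percent of each library (log scale), 1 point per library, by stage. The share is 3.45% in the egg, about 1.4% in 16-32 cell embryos and 0.167% and 0.131% in early blastulae, and it changes little after the late blastula.

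Most members already stood below their egg level at the 16-32 cell stage, a stage that the rule did not use. On the plain TPM scale few were at 25% of it or less. Relative to the egg, the mean level at the 16-32 cell stage ranged from 6.94% to 231% between members, with a median of 49.1%. Only 1 member was at 10% or less, 9 lay between 10 and 25%, 31 between 25 and 50%, 27 between 50 and 100%, and 12 above the egg level. In 66 members both 16-32 cell libraries were below the egg library and in 11 both were above it. The 2 libraries of 16-32 cell embryos were close to each other, with a median difference of 0.09 on the log2 TPM scale, and 79 of 80 members agreed within 1.5-fold.

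In edgeR's quasi-likelihood test across all transcripts, 38 of 80 members (47.5%) were lower at the 16-32 cell stage than in the egg, with a change of at least 2-fold and a p, adjusted after Benjamini and Hochberg, of under 0.05. Of all 30661 transcripts tested 7.38% were lower by the same criteria. None of the members was higher, against 4.95% of all transcripts. Since the egg level chose the members, these counts are a description. The median log2 fold change of the members was -1.54 in the fit, against 0 over all transcripts tested. On the plain TPM scale the median change was -1.02, and the fit differs from it because the egg library received a scaling factor of 0.604, against 0.777 and 0.748 for the 16-32 cell libraries. With this scaling 4 members instead of 11 were above the egg in both 16-32 cell libraries. For the other fits named next, the share of all transcripts called is not given, so that nothing about the members is read from their counts. Without 16-32 cell replicate 1 the number of members called lower was 25, and a fit on only the 3 libraries compared gave 58.

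Of the members named for this step, TCONS_00020817 had 25.1 and 20.6 TPM in 16-32 cell embryos, against 221 TPM in the egg. Its fitted log2 fold change was -3.80 (SE 0.44). TCONS_00006904 had 1.15 and 1.07 TPM at the 16-32 cell stage, against 15.9 TPM in the egg, which the fit put at -4.37 as a log2 fold change (SE 1.22). Both stood near 10% of the egg level before the blastula. At the other end, TCONS_00048523 stood at 26.2 and 25.5 TPM in 16-32 cell embryos, against 11.2 TPM in the egg, the highest relative level of the set at 231%. Poly(A)-selected libraries measure tailed RNA, so that synthesis, decay and changes of tail length cannot be told apart, and in whole embryos neither can fewer cells of a type and less RNA per cell.

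**Figure D3:**
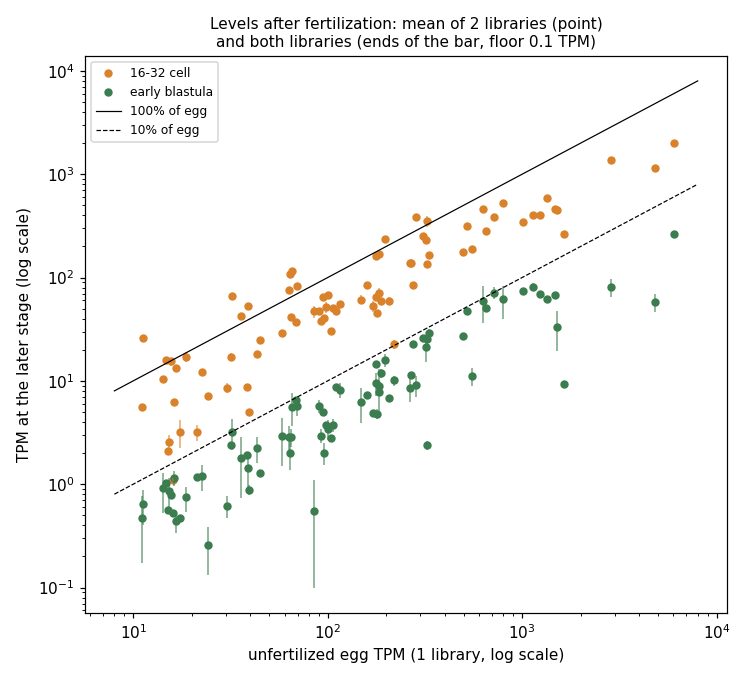
TPM of each member in 16-32 cell embryos (orange) and in early blastulae (green) against its TPM in the egg library, both axes on a log scale. Points are means of 2 libraries and bars end at the single libraries. The solid line marks the egg level and the dashed line 10% of it. At the 16-32 cell stage 79 of 80 members lie above the dashed line and 12 above the solid one, while in the early blastula all means lie at or below the dashed line.

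In proportion the change was larger between the 16-32 cell stage and the early blastula, whereas in amount, as shares of TPM show, more was lost in the step before. The median log2 TPM change of a member was -3.45 over this step, against -1.02 between the egg and the 16-32 cell stage, and 74 of 80 members changed more in the second step than in the first. Both early blastula libraries were below both 16-32 cell libraries for all 80 members. In the fit 77 members (96.25%) were lower in the early blastula than at the 16-32 cell stage, where 13.3% of all tested transcripts were lower by these criteria, and 0 were higher. The early blastula level chose the members, so that nothing is read from this count, and no p-value is given for single members at this step. The rule held that level at 10% or less of the egg, and the median at the 16-32 cell stage was 49.1%. A larger change in the second step was therefore also largely set by the choice of members, and its values are a description.

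TCONS_00027398 had 2.15 and 2.61 TPM in the early blastula, against 394 and 305 TPM in 16-32 cell embryos, with a fitted log2 fold change of -7.09 (SE 0.82). At the 16-32 cell stage this short model of 324 bases was close to its egg level of 325 TPM, so that the difference from the egg arose almost wholly in the second step. Only 7 counts over both libraries lie behind its early blastula level, and it stood higher again, at 24.7, 26.8 and 28.4 TPM, in the 3 libraries of mid gastrulae before mesoderm migration. TCONS_00028777 had 1.10 and 0 TPM in the early blastula, against 53.2 and 41.0 TPM at the 16-32 cell stage. Its estimated counts in the early blastula were 55.3 and 0. Such fractional counts arise where reads are divided between models, so that the 0 is uncertain. With single libraries left out, its fitted log2 fold change ranged from -14.75 to -5.39. It read 6.33 and 6.02 TPM in the late blastula libraries, above both early blastula libraries. In the set as a whole, 77 of 80 members had a lower mean in the late than in the early blastula.

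After the blastula the members differed in the absolute level at which they stayed. Over the 9 stages from the late gastrula to the adult, 17 members stayed under 1 TPM at every stage, 28 stayed at 1 TPM or more at every stage, and 35 crossed that level. Members that stayed under 1 TPM had a median of 35.7 TPM in the egg and a median of 73.3% of the egg level at the 16-32 cell stage. Members that stayed at 1 TPM or more had medians of 237 TPM in the egg and 43.3% in 16-32 cell embryos. In early blastulae both groups had a median of 5.0% of the egg level. In the 28 members that stayed at 1 TPM or more, the median of the lowest stage level was 3.82 TPM and that of the highest was 11.5 TPM, with a median ratio of 3.21 between them. These groups were defined from the levels themselves, and no test was made. A cut in TPM depends on the egg level and does not sort members by the extent of their fall. TCONS_00045076, for example, stayed at 1 TPM or more, yet it had at most 0.709% of its egg level from the early blastula to Heider.

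Grouped another way, 18 members stood at 0.1% of the egg level or less at Heider, some of them also among those under 1 TPM. Their levels can be followed from library to library. Their median was 71.5% and 62.3% of the egg level in the 16-32 cell libraries, 4.89% and 2.53% in early blastulae, 1.49% and 0.411% in late blastulae, and 0.0645% and 0.00294% in the late gastrula. The level differed between libraries of a stage. In the early gastrula the medians were 0.561%, 0.211% and 0.647%, and in the mid gastrula before mesoderm migration 0.0958%, 0.0792% and 0.306%, so that replicate 3 was the highest at both stages.

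At 72 hours the 2 tornaria libraries stood far apart for these transcripts. The median of the 18 members was 1.05% of the egg level in replicate 1 and 0% in replicate 2, in which 12 of the 18 had 0 counts. By this median replicate 1 was above both late gastrula libraries, and replicate 2 was below both Heider libraries. TCONS_00021746 had 22.9 TPM in replicate 1 and 0.279 TPM in replicate 2, and then 0.0349 and 0.0385 TPM in the Heider libraries. Over all 80 members, 59 were higher in tornaria replicate 1 than in replicate 2, and 26 of them by at least 10-fold, against 4 that were at least 10-fold higher in replicate 2. Of the other egg transcripts 56.4% were higher in replicate 1, and of all transcripts 45.5%. The stage mean at 72 hours exceeded both the late gastrula and the Heider mean in 44 members, and replicate 2 alone exceeded them in 18. What distinguishes replicate 1 was not tested.

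**Figure D4:**
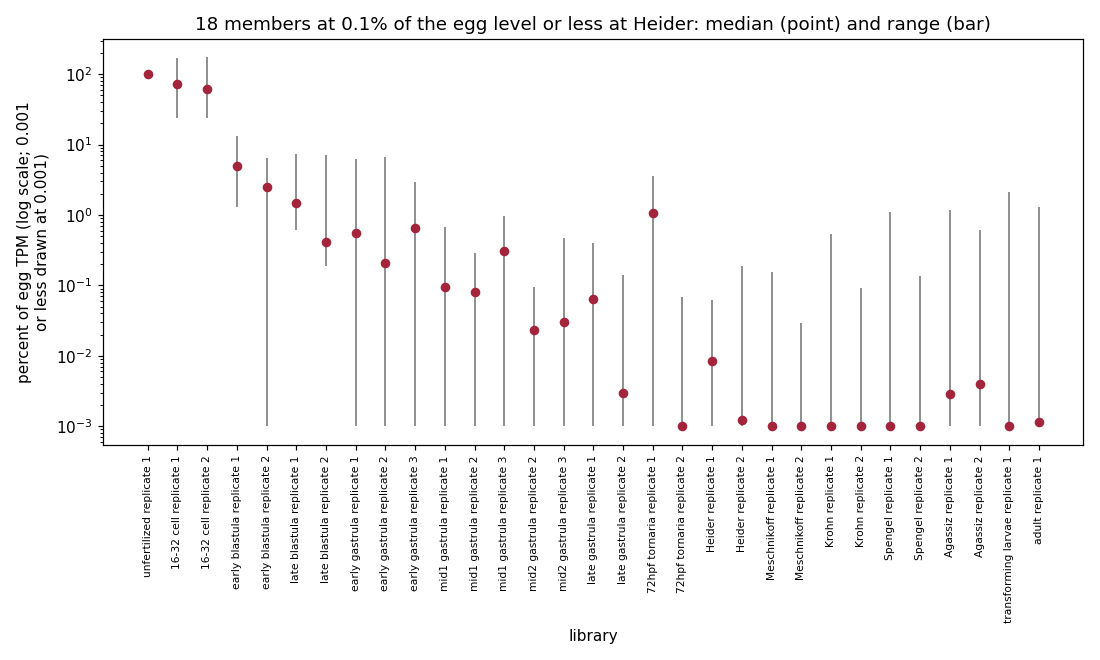
Level, in percent of the egg TPM (log scale), of the 18 members at 0.1% or less at Heider, in each library. Points are medians and bars run from the lowest to the highest member, and values of 0.001% or less are drawn at 0.001%. The median is lower in late gastrulae than in early blastulae, and at 72 hours it is 1.05% in tornaria replicate 1 and 0% in replicate 2.

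The members were also compared between 2 points of development that the rule did not use. The feeding tornaria was represented by the average, on the fitted log scale, of Meschnikoff, Krohn, Spengel and Agassiz, and was compared with the 16-32 cell stage. All 80 members (100%) were lower in the feeding tornaria by edgeR's test, against 21.2% of all transcripts tested. The rule had already held the members at 10% or less of the egg level up to Heider, the stage before Meschnikoff. At the 16-32 cell stage their median was 49.1%. A fall was therefore largely set by the choice of members, and the count and the p-values of single members at this step are a description. The median log2 fold change was -5.61 for the members, -1.62 for the other egg transcripts and 1.81 for all transcripts tested, and the members ranged from -16.18 to -2.64. With the size factors of DESeq2 in the same fit the median of all transcripts shifted by 0.26, and the call held for all 80 members. The call also held for all 80 in each of the other fits tried.

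TCONS_00016983 had a lowest, median and highest level of 0, 0 and 0.0408 TPM in the 8 feeding tornaria libraries, against 562 and 492 TPM in 16-32 cell embryos. These larval libraries held 2 counts in all, and pooled over libraries, relative to their TMM-scaled sizes, the counts were lower in the feeding tornaria by a ratio of 94725 (exact 95% counting interval 26220 to 782218). The edgeR fit, which averages stages on the log scale, gave an adjusted p of 1.15e-12. TCONS_00021746 had a lowest, median and highest level of 0, 0.0385 and 0.220 TPM in the feeding tornaria, against 1963 and 2055 TPM in 16-32 cell embryos (log2 fold change -15.91, SE 1.05, edgeR adjusted p = 2.72e-11). Only 13 counts lie behind the larval levels of TCONS_00021746. Neither member had a larval library near its level in the cleaving embryo.

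Late in larval life few members were called higher or lower. Between Spengel and Agassiz, the last 2 named larval stages, 3 members (3.75%) were higher in Agassiz, against 8.14% of all transcripts tested, and 4 (5%) were lower, against 8.44% of all. Neither share of the members exceeded that of all transcripts. TCONS_00048523 had 2.48 and 2.47 TPM in Agassiz, against 0.647 and 0.507 TPM in Spengel, and its log2 fold change was 2.23 (SE 0.51, edgeR adjusted p = 0.00357). This member, which had the highest relative level at the 16-32 cell stage, stood at 22.1% of its egg level in Agassiz and at 26.9% in transforming larvae. TCONS_00042987 had 2.31 and 1.42 TPM in Agassiz, against 4.90 and 7.59 TPM in Spengel, and its log2 fold change was -1.60 (SE 0.45, edgeR adjusted p = 0.0136). Both were below 10 TPM in each library from Heider on. For the fits without single libraries that follow, the share of all transcripts called is not given, and their counts are a description. Without Spengel replicate 2 the counts were 0 higher and 2 lower, and both named calls were lost (edgeR adjusted p = 0.0537 for TCONS_00048523 and 0.117 for TCONS_00042987). Without Agassiz replicate 1 they were 2 and 1, and without Agassiz replicate 2 they were 1 and 0, where the call of TCONS_00042987 was also lost (edgeR adjusted p = 0.154).

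In transforming larvae, which are leaving the plankton to become worms, 2 members (2.5%) were higher than in Agassiz, against 0.998% of all transcripts tested, and 0 were lower, against 1.37% of all. TCONS_00014812 had 32.7 TPM in the transforming larva, against 12.4 and 18.8 TPM in Agassiz (log2 fold change 1.18, SE 0.23, edgeR adjusted p = 0.00687). TCONS_00010729 had 9.08 TPM in the transforming larva, against 2.46 and 3.64 TPM in Agassiz (log2 fold change 1.68, SE 0.35, edgeR adjusted p = 0.0103). These levels remained far under the egg levels of 1134 and 268 TPM. Without Agassiz replicate 1 both calls were lost (edgeR adjusted p = 0.0949 and 0.128), and that of TCONS_00014812 also with only the libraries compared (0.0859). At an unadjusted p under 0.05 in edgeR's test, 10 of 80 members differed in either direction between these stages. Between Spengel and Agassiz 19 did. The share of all transcripts at this looser cut is not given here, so that nothing is read from these 2 counts. No fit called a member lower in transforming larvae than in Agassiz.

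The adult was compared with the feeding tornaria in the same way. In the adult 17 members (21.25%) were higher, against 23.2% of all transcripts tested, and 6 (7.5%) were lower, against 13.9% of all. The share of members that were higher was near that of all transcripts. The median log2 fold change was 0.20 for the members and 0.04 for all transcripts, and the size factors of DESeq2 shifted the median of all transcripts by 0.19. With those factors 19 members were higher and 4 lower, and the DESeq2 Wald test called 17 higher and 3 lower. The share of all transcripts called in these fits is not given, so that nothing about the members is read from these counts.

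TCONS_00004005 had 23.3 TPM in the adult, against a lowest, median and highest level of 0.419, 0.746 and 1.42 TPM in the 8 feeding tornaria libraries (log2 fold change 5.08, SE 0.43, edgeR adjusted p = 2.49e-08). The adult level was 77.0% of the egg level of 30.3 TPM, the nearest return to the egg level in the set. TCONS_00006904, the member that was lowest at the 16-32 cell stage, had 4.78 TPM in the adult, against 0, 0.0551 and 1.22 TPM as the lowest, median and highest levels in the feeding tornaria (log2 fold change 6.71, SE 1.00, edgeR adjusted p = 3.19e-05). Its highest larval value came from Krohn replicate 1. In both members the adult library lay above all larval libraries.

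TCONS_00042987 had 0.186 TPM in the adult, against 1.42, 6.53 and 8.51 TPM as the lowest, median and highest levels in the feeding tornaria. Its adult level rests on 3 counts, which, pooled and scaled in the same way, were lower than in the feeding tornaria by a ratio of 28.3 (exact 95% counting interval 9.64 to 137). The edgeR fit gave an adjusted p of 0.000127. TCONS_00011018 had 0.725 TPM in the adult, against 2.28, 3.81 and 8.95 TPM as the lowest, median and highest larval levels (log2 fold change -2.49, SE 0.40, edgeR adjusted p = 5.35e-05). For both the adult lay below all 8 larval libraries.

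Counted by level instead of by test, 13 of 80 members exceeded 10% of their egg level at some stage from Meschnikoff to the adult, 6 of them in a feeding tornaria stage and 11 in the adult, and 2 exceeded 50%. No member reached its egg level at any of these stages. From the early blastula on, the highest stage mean was that of the early blastula in 46 members and that of the adult in 12.

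**Figure D5:**
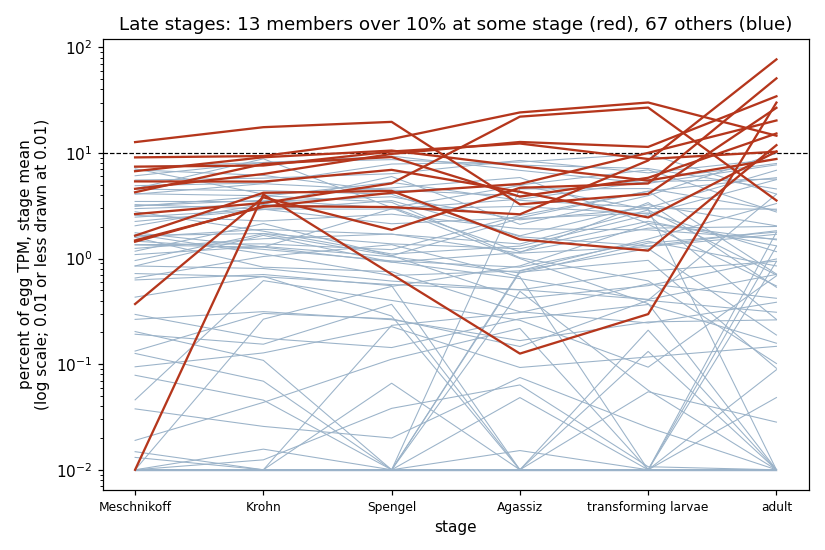
Stage means of all 80 members in percent of the egg TPM (log scale) at the 6 stages from Meschnikoff to the adult, none of which the rule used. Each line is a member, the dashed line marks 10%, and values of 0.01% or less are drawn at 0.01%. The 13 members in red exceed 10% at some stage, 11 of them in the adult, and the highest adult value is 77.0%.

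Set beside the other transcripts of the egg, the members had lower levels also at stages outside the rule. The members had a median of 49.1% of the egg TPM at the 16-32 cell stage, 1.05% at Spengel and 0.967% in the adult, against 133%, 83.0% and 62.4% in the 6649 other models with at least 10 TPM in the egg. A set of 183 egg transcripts that were still above 10% in the early blastula and at 10% or less from the late gastrula to Heider had medians of 86.5%, 2.11% and 2.52% at these stages. These are descriptions of overlapping distributions, and no test over samples was made for them. The 6649 other models are those that failed the rule, and Spengel and the adult come after Heider. Lower levels of the members at these 2 stages were therefore largely set by their choice. The egg level, which chose them, is also the base of the percent at the 16-32 cell stage. The percents are of plain TPM and lack the scaling of the fit. With that scaling the other egg transcripts had a median log2 fold change of -0.11 from the egg to the 16-32 cell stage, against -1.54 in the members. The 133% is therefore not read as a rise. Across the members, the egg level and the percent left at the 16-32 cell stage were weakly related (Spearman's rho -0.17, n = 80), as they were in the other egg transcripts (rho -0.19, n = 6649), and the egg value enters both measures.

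Length was a measure that the rule did not use. That of the members ranged from 243 to 6939 bases with a median of 2325, against a median of 1668 in the other egg transcripts and 1620 in all models. Sets with a like course lay between, with a median of 1829 in the 183 transcripts lost later and 2034 in the 141 non-members at or below 10% in the early blastula. Models under 1000 bases were 13.75% of the members, 21.9% of the 183 and 32.7% of the other egg transcripts. The upper quartile was 3120 bases in the members, against 3203 in the 183, 3250 in the other egg transcripts and 2854 in all models. The members were thus not longer than the other egg transcripts throughout the range. No test of length was made. Length and the percent left at the 16-32 cell stage had a Spearman's rho of -0.04 across the members (n = 80). In 45 members (56.25%) the estimated egg count was whole within 0.001, against 73.8% of the other egg transcripts, and the other 35 had fractional counts, which arise where reads are divided between models, so that their levels are less certain. Among the members, 11 carried identifiers whose number came directly before or after that of another member, such as TCONS_00016981, TCONS_00016982 and TCONS_00016983. These 3 had 29.5%, 72.6% and 66.2% of the egg level at the 16-32 cell stage. Whether such models belong to a single locus is not given in the sources used here, and members with shared reads are not independent of each other.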

How the data were processed

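Stranded, poly(A)-selected TruSeq libraries were made from RNA of whole animals (RNeasy Micro kit), per the labels' protocols. The authors deposited estimated counts and TPM per transcript model, with length and effective length. kallisto and edgeR are named, without versions, in the submitters' processing notes. For the genome build and the origin of the models, the source is not given in the sources used here. Titles gave each library's stage and replicate number. TPM gave the levels and the members. Estimated counts were rounded and tested with edgeR 4.0.16 (limma 3.58.1, R 4.3.3): filterByExpr by stage (30661 models kept, all 80 members among them), TMM, and quasi-likelihood F tests with the trended dispersion and 1 coefficient per stage over 31 libraries (15 residual degrees of freedom). Calls required a Benjamini-Hochberg adjusted p under 0.05 over all models tested and a change of at least 2-fold. The fit was also run on simulated counts for some of the comparisons, with the spread drawn from the trended dispersion alone. The outcome of that run is not given here. DESeq2 1.42.0 was an alternative. Named members were, for each comparison, the 2 called members that rose most and the 2 that fell most, provided that the higher group averaged at least 5 TMM-scaled CPM and the libraries did not overlap, besides those at the ends of the set's range. TCONS_00048523 at the 16-32 cell stage and TCONS_00016981 to TCONS_00016983 were chosen after their values were seen. The members, comparisons and limits were chosen with earlier results of these data known. A sequence or a coordinate was not used, since the identifiers matched no reference entry. Summaries and figures used Python 3.11.15 with pandas 2.3.3, numpy 2.4.6, matplotlib 3.10.9 and SciPy 1.17.1.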

Additional observations from a re-analysis of the deposited data

How the results depend on the processing

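The set numbered 80 members with the limits used, 32 with a limit of 5%, 199 with a limit of 20% and 168 with TMM-scaled CPM in place of TPM, among which were all 80. All 80 members stayed in the set without tornaria replicate 1, which was settled beforehand, since none exceeded 10% in either 72-hour library. Leaving out single libraries from the early blastula to Heider gave sets of 75 to 87. For the 16-32 cell stage against the egg, 58 members were lower with only the libraries compared, and 25 to 29 with either 16-32 cell library left out. For the early blastula against the 16-32 cell stage, single libraries left out gave 69 to 75 members lower. For Agassiz against Spengel they gave 0 to 2 higher and 0 to 3 lower, and adjusted p alone gave 5 higher. For transforming larvae against Agassiz they gave 1 to 2 higher, with 1 higher among the 49 members tested with only the libraries compared and 4 by the DESeq2 Wald test. For the adult against the feeding tornaria they gave 14 to 16 higher and 5 to 7 lower, and the DESeq2 Wald test gave 3 lower. The mean of Spengel and Agassiz alone as the feeding tornaria, chosen after seeing the data, gave 15 higher and 4 lower. For fits other than the main one, here and in the Results, the share of all transcripts called is not given. Whether the members alone or all transcripts moved can therefore not be told from these counts. The causes of these differences were not tested. The replicate block, with 40 members lower at the 16-32 cell stage, 4 higher and 6 lower in Agassiz, and 16 higher and 6 lower in the adult, moved no count by over 1.5 times. The libraries were not treated as paired, because not every same-numbered pair had a correlation over 0.1 between deviations from the stage means (27 of 147 did, range -0.183 to 0.671, median 0.00281). That 21 of 28 libraries were closest to a library of their own number is a hint of pairing from the data, not from the design. The cap of 200 was without effect. Members with low counts in larvae, where 13 to 18 of 80 had 0 counts in a library from Meschnikoff on, limit what a change there can show.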
